A study of Mus musculus with 18 samples.

Results

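The Hox genes encode homeodomain transcription factors that give cells their position along the body axis. In the mouse they stand in 4 clusters, HoxA, HoxB, HoxC and HoxD, in which genes of the same number are paralogs and the order of the genes follows the order of their expression domains from head to tail. Low numbers (groups 1 to 4) pattern the hindbrain and neck, middle numbers (5 to 8) the trunk, and high numbers (9 to 13) the hind body, limbs and genital region. H3K4me3 is a histone mark laid down by the MLL and SET1 enzymes at active promoters, and it also lies with the Polycomb mark H3K27me3 at silent developmental promoters, the Hox clusters being a classic case. TET1 oxidises 5-methylcytosine and binds unmethylated CpG-rich DNA.

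All 38 Hox genes listed for this work were described, out of 21887 coding genes on the autosomes, X and Y. They were chosen by name and position in the 4 clusters. HoxA and HoxB each held 10 of them, and HoxC and HoxD each 9.

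The H3K4me3 profiles came from prospermatogonia, the fetal male germ cells that have stopped dividing and are regaining DNA methylation. Oct4-GFP+ cells taken at E17.5, in late gestation, had been cryopreserved, and 4000 of their nuclei went into each CUT&RUN library. In CUT&RUN an antibody tethers a nuclease that releases marked chromatin. The groups were Tet1+/+ (WT), Tet1-/- (KO) and Tet1HxD/HxD (HxD), with 3 biological replicates each. The HxD allele alters the metal-binding motif of the catalytic domain and is known as catalytically inactive. All 9 libraries shared the reporter, the tissue, the H3K4me3 antibody and the batch label. The labels give neither the strain, nor the promoter construct of the reporter, nor whether animals were pooled, so the p-values measure the spread between these samples. IgG libraries were not used here.

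Each library was represented by 1 list of peaks, the intervals the authors called as enriched. WT lists held 83586 to 128701 peaks over 76.6 to 108.9 Mb, KO lists 69901 to 80232 peaks over 50.5 to 73.0 Mb, and HxD lists 49624 to 67925 peaks over 45.6 to 69.3 Mb, so the WT lists were the longest. KO replicate 1 and HxD replicates 2 and 3 stood apart, with mean covered lengths over all tested genes of 1889, 1958 and 1963 bp, against 2210 to 2804 bp in the other 6 libraries. Tet1 itself carried peaks in all 9 libraries, with a breadth of 2415 to 3315 bp in WT, of 2732 to 4851 bp in KO and of 2580 to 3495 bp in HxD. H3K4me3 at its ends does not check the alleles.

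In WT cells the Hox clusters were broadly marked. Peaks covered 43.1 ± 4.45 kb of the 98.5 kb of HoxA, 51.1 ± 6.32 kb of the 173.9 kb of HoxB, 40.2 ± 5.35 kb of the 115.7 kb of HoxC and 44.5 ± 4.56 kb of the 96.9 kb of HoxD (mean ± SD, n = 3). These are 43.8%, 29.4%, 34.7% and 45.9% of the cluster lengths. The clusters, from the first to the last listed gene, lie at chr6:52162417-52260880, chr11:96194316-96368254, chr15:102921131-103036856 and chr2:74668225-74765142 (mm10). In HoxB the marked part was least dense in the long stretch between Hoxb13 and Hoxb9.

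**Figure D1:**
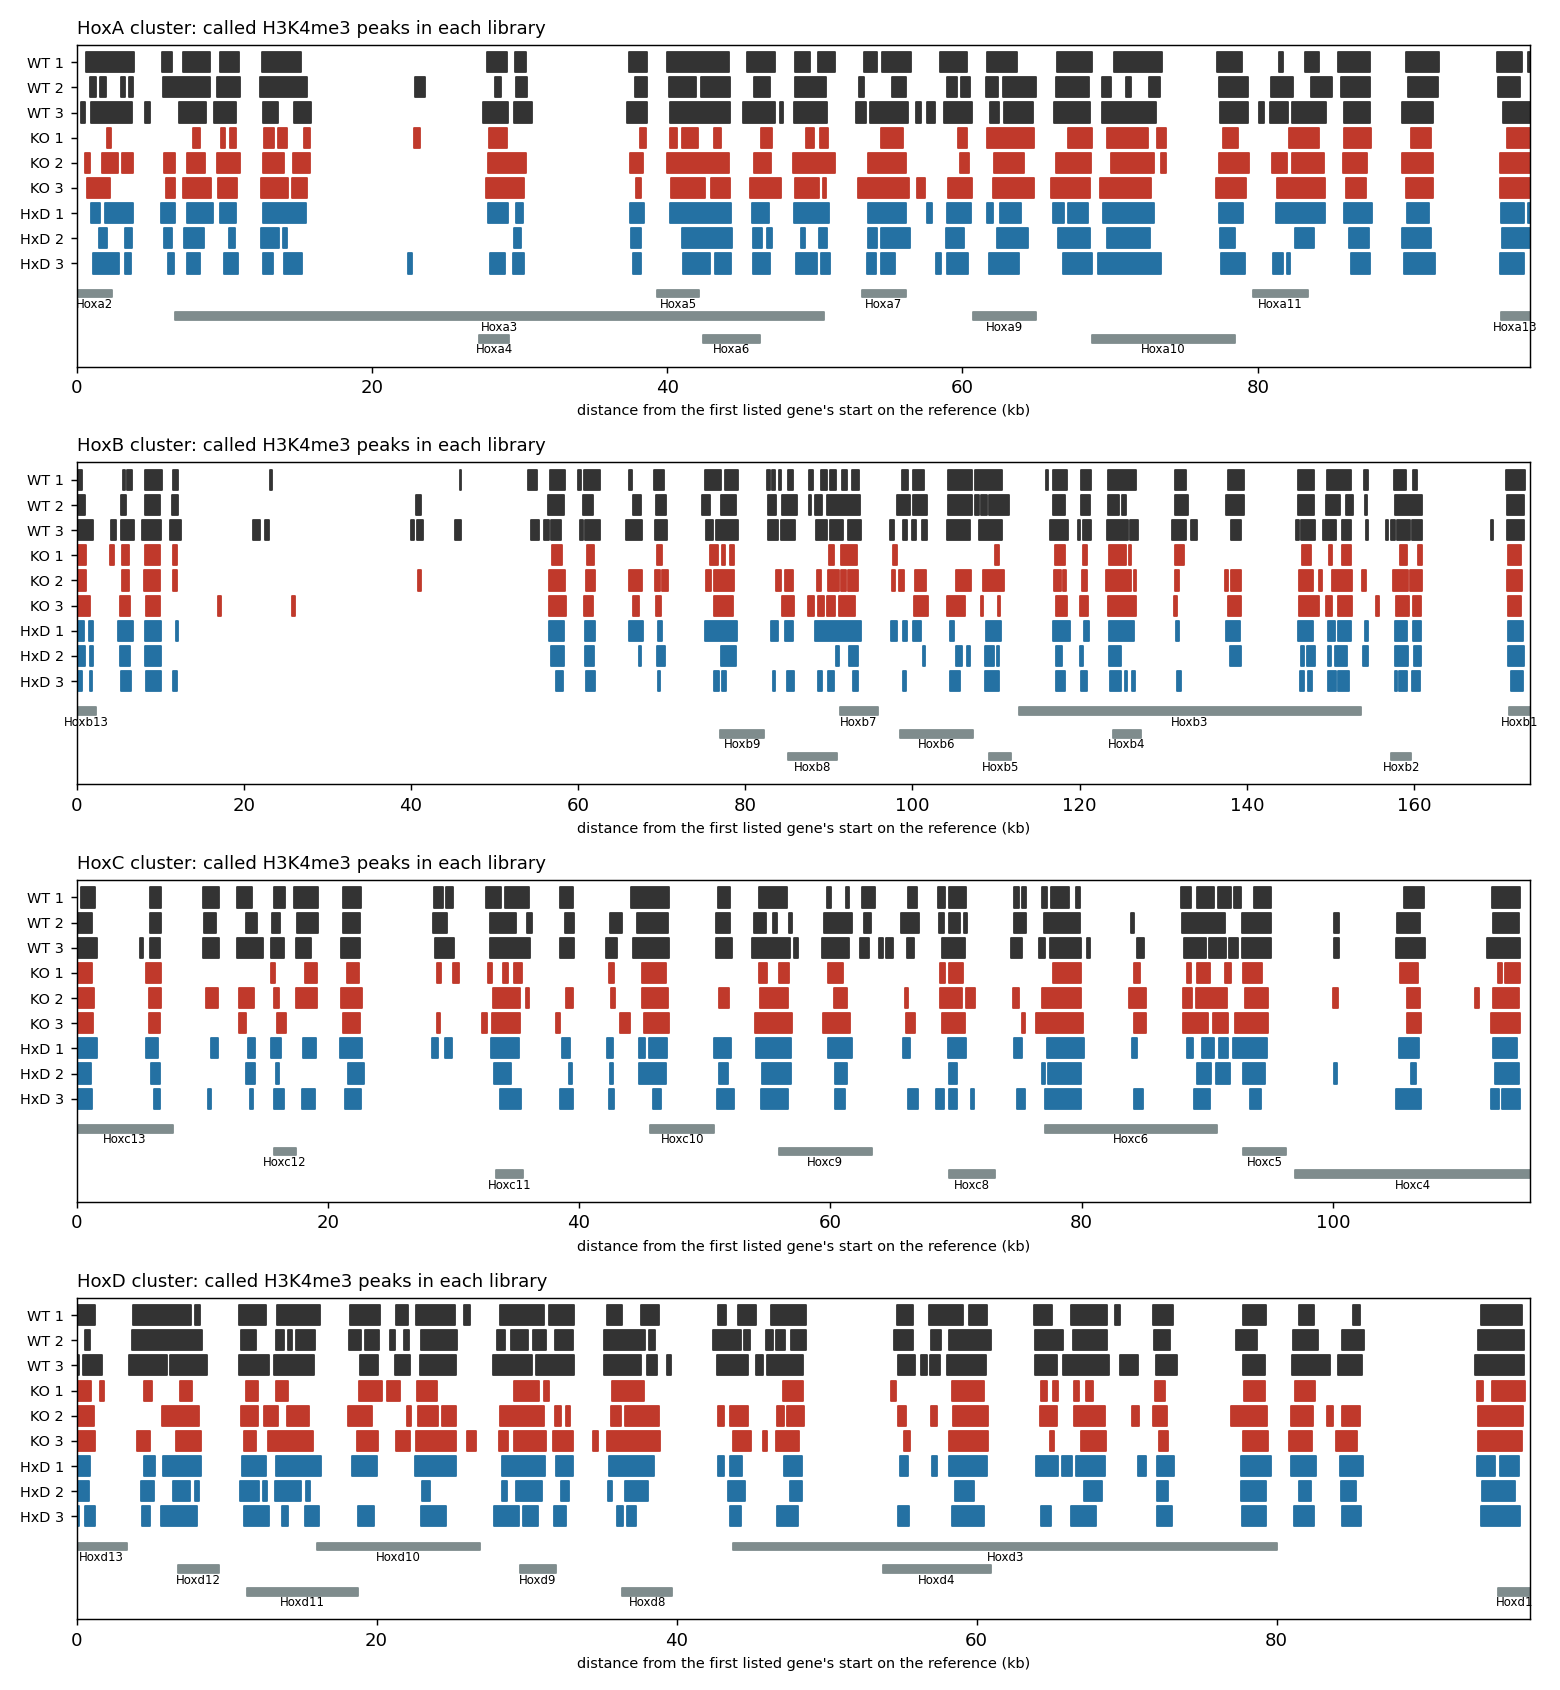
Peaks called in each library across the 4 Hox clusters. Horizontal axis, distance in kb from the start of the first listed gene; each line is 1 library (WT black, KO red, HxD blue) and each block 1 peak; grey boxes are the listed genes. Peaks of the mutants stand mostly at the places of WT peaks and are shorter or fewer, most visibly in KO 1, HxD 2 and HxD 3.

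Which cluster lengths were marked was compared between genotypes first, as 1 value per library. HoxB was covered over 47.0, 48.0 and 58.4 kb in WT, 23.0, 41.8 and 38.9 kb in KO, and 42.0, 26.2 and 25.0 kb in HxD. All 6 mutant libraries lay below every WT library, and within each mutant the libraries were far apart. The means were 16.6 kb lower in KO and 20.0 kb lower in HxD as deposited. Scaled by total covered bp the means came close, with 37.0 kb in KO and 38.5 kb in HxD against 40.3 kb in WT, and the libraries overlapped: WT ranged from 37.6 to 43.9 kb, KO from 31.9 to 40.1 kb and HxD from 32.7 to 42.5 kb.

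HoxC was covered over 36271, 37971 and 46264 bp in WT, 22205, 34322 and 32787 bp in KO, and 33920, 22127 and 26057 bp in HxD. HoxD was covered over 42.2, 41.6 and 49.7 kb in WT, 23.4, 37.6 and 37.0 kb in KO, and 39.4, 22.4 and 29.2 kb in HxD. In both clusters every mutant library again lay below every WT library. The KO means were lower by 10.4 and 11.8 kb and the HxD means by 12.8 and 14.2 kb, but scaled by total covered bp the KO means were 0.6 and 0.1 kb and the HxD means 2.4 and 2.3 kb above WT.

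HoxA differed from the other clusters in that its groups overlapped. Its covered length was 42.6, 39.0 and 47.8 kb in WT, 27.1, 41.8 and 43.8 kb in KO, and 41.7, 29.8 and 34.1 kb in HxD. In KO only replicate 1 lay below WT, and without it the KO mean was 0.4 kb under the WT mean. Scaled by total covered bp, HoxA was 6.5 kb longer in KO and 10.1 kb longer in HxD than in WT. Whether the genotype difference itself differs between HoxA and the other clusters was not tested.

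None of the cluster differences passed a test as deposited. By two-sided exact permutation tests of 3 libraries against 3, which cannot go below p = 0.1, KO against WT gave p = 0.1 for HoxB, HoxC and HoxD and p = 0.5 for HoxA. The same exact test of HxD against WT gave p = 0.1, 0.1, 0.1 and 0.2 in the same order. The lowest p, adjusted by Benjamini-Hochberg over the 12 comparisons, was 0.2. The exact permutation F test over the 3 genotypes, which enumerated 1680 arrangements, gave p = 0.0679 for HoxB, 0.0643 for HoxC, 0.0893 for HoxD and 0.425 for HoxA, or 0.119, 0.119, 0.119 and 0.425 adjusted over the 4. HxD and KO differed by 2.3 to 3.5 kb in the 4 clusters, with HxD the lower (exact permutation p = 0.7 to 1).

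The clusters were also read after each library was scaled to the same mean covered length over all tested genes, a setting added after the data were seen. HoxB then stood at 47.9, 50.1 and 48.1 kb in WT, 28.1, 38.3 and 33.5 kb in KO, and 38.9, 30.9 and 29.4 kb in HxD. The WT libraries came close together and the distance to the mutants stayed wide. HoxC stood at a WT mean of 38.2 kb, with 29.0 kb in KO and 29.4 kb in HxD, and HoxD at 42.5 kb, with 31.6 and 32.4 kb, every mutant library again below every WT library. The exact permutation F test on the scaled values gave p = 0.0357 for each of the 3 clusters and p = 0.15 for HoxA. These p-values were not adjusted over the 4 clusters. With total covered bp held equal, the same F test gave a lower p than any of these for HoxA, there with the mutants longer. Direction and call therefore depend on which genome-wide total is held equal: mean breadth around genes gave lower mutant values in all 4 clusters, and total covered bp gave higher ones in HoxA, HoxC and HoxD.

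**Figure D2:**
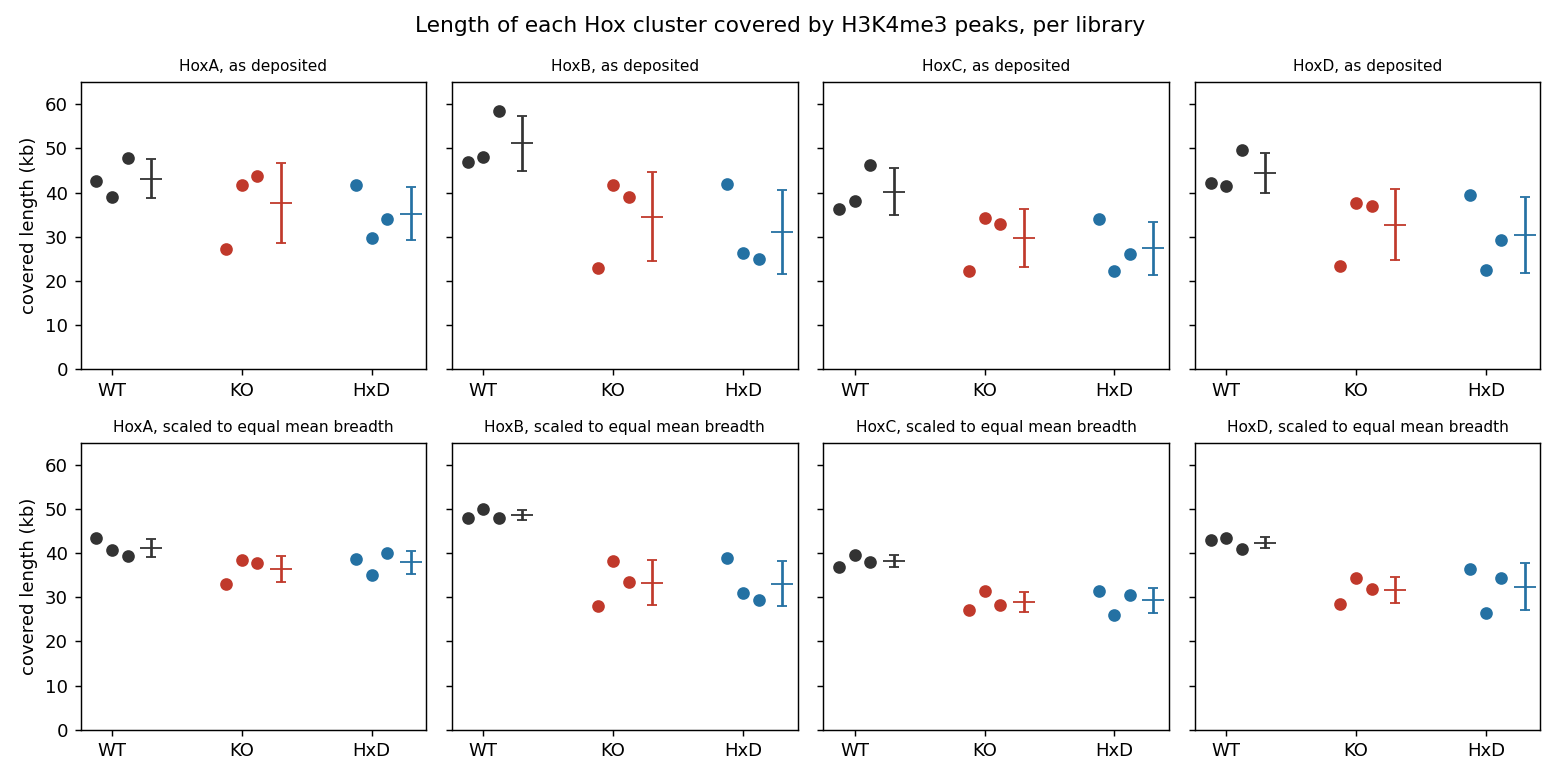
Covered length in kb of each Hox cluster, per library; points are libraries, and the bar beside them is the mean with SD (n = 3). Upper panels, as deposited; lower panels, each library scaled to the same mean covered length over all tested genes. In HoxB, HoxC and HoxD all mutant points lie below all WT points in both rows; scaled by total covered bp, which is not drawn, the HoxA, HoxC and HoxD means were higher in the mutants.

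Bases, rather than lengths, were compared next. Of the 4 clusters, 114.5 kb were under a peak in every WT library and 34.8 kb in all 9, which is 30.4% of the former against 31.6% over the whole genome. Of the bases marked in every WT library, 6.05% were unmarked in every KO library, 8.13% in every HxD library and 2.87% in every mutant library. Over all autosomes, X and Y the same shares were 13.3%, 12.5% and 6.35%. The Hox shares were the smaller ones in all 3 cases, and the difference from the genome was not tested. Between clusters, the share absent from all KO libraries ran from 1.49% in HoxA to 8.17% in HoxB.

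The stretches that did disappear were short. The longest one marked in every WT library and in no KO library was 614 bp at chr2:74673289-74673902, between Hoxd13 and Hoxd12. The longest one absent from HxD was 598 bp at chr11:96326467-96327064, within the long Hoxb3 gene. The longest one absent from all 6 mutant libraries was 434 bp at chr15:102983795-102984228, within Hoxc9. Conversely, 253 bp of the clusters were under peaks of all KO libraries and free of WT peaks, and 38 bp were so in HxD. Over all autosomes, X and Y these lengths were 558957 and 292504 bp. For scale, 48839176 bp of that genome and 114530 bp of the clusters were marked in every WT library.

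Most of the length of HoxA, HoxC and HoxD lay near the genes, whereas in HoxB 90.0 kb lay within 5 kb of a listed gene's end and 83.9 kb farther away. Within 5 kb of an end, HoxB had 35.1 kb covered in WT, against 24.57 kb in KO and 22.3 kb in HxD. Away from the ends its covered length ranged from 13.46 to 19.79 kb among WT libraries, from 6.65 to 11.78 kb among KO libraries and from 6.02 to 11.68 kb among HxD libraries. The mutant ranges lay wholly under the WT range in both parts of HoxB. Near the ends they were 16.3 to 30.0 kb in KO and 17.6 to 30.3 kb in HxD, against 32.2 to 38.6 kb in WT. The near parts of HoxC and HoxD also separated WT from both mutants, and that of HoxA did not. In HoxC the distant part was small and its ranges overlapped, with 1.8 to 2.88 kb in WT libraries, 1.9 to 2.59 kb in KO libraries and 0.83 to 2.84 kb in HxD libraries. The distant part of HoxA had means of 4.14 kb (WT), 3.75 kb (KO) and 3.64 kb (HxD), and that of HoxD 4.94, 2.72 and 3.38 kb in the same order, and WT overlapped both mutants in HoxA and only HxD, through its replicate 1, in HoxD.

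For single genes the measure was the breadth, the number of bp under peaks within 5 kb of either end of the gene. All 38 Hox genes had a peak in that window in all 9 libraries, so all passed the filter of a peak in at least 3 libraries, which kept 17982 coding genes. In WT the peaks filled between 18.3% of the window, at Hoxb1, and 65.4%, at Hoxa6, which lies in the dense middle of its cluster. Windows of neighbours overlap in 24 of 34 neighbouring pairs, so the genes of a cluster share much of their signal and are not separate observations.

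**Figure D3:**
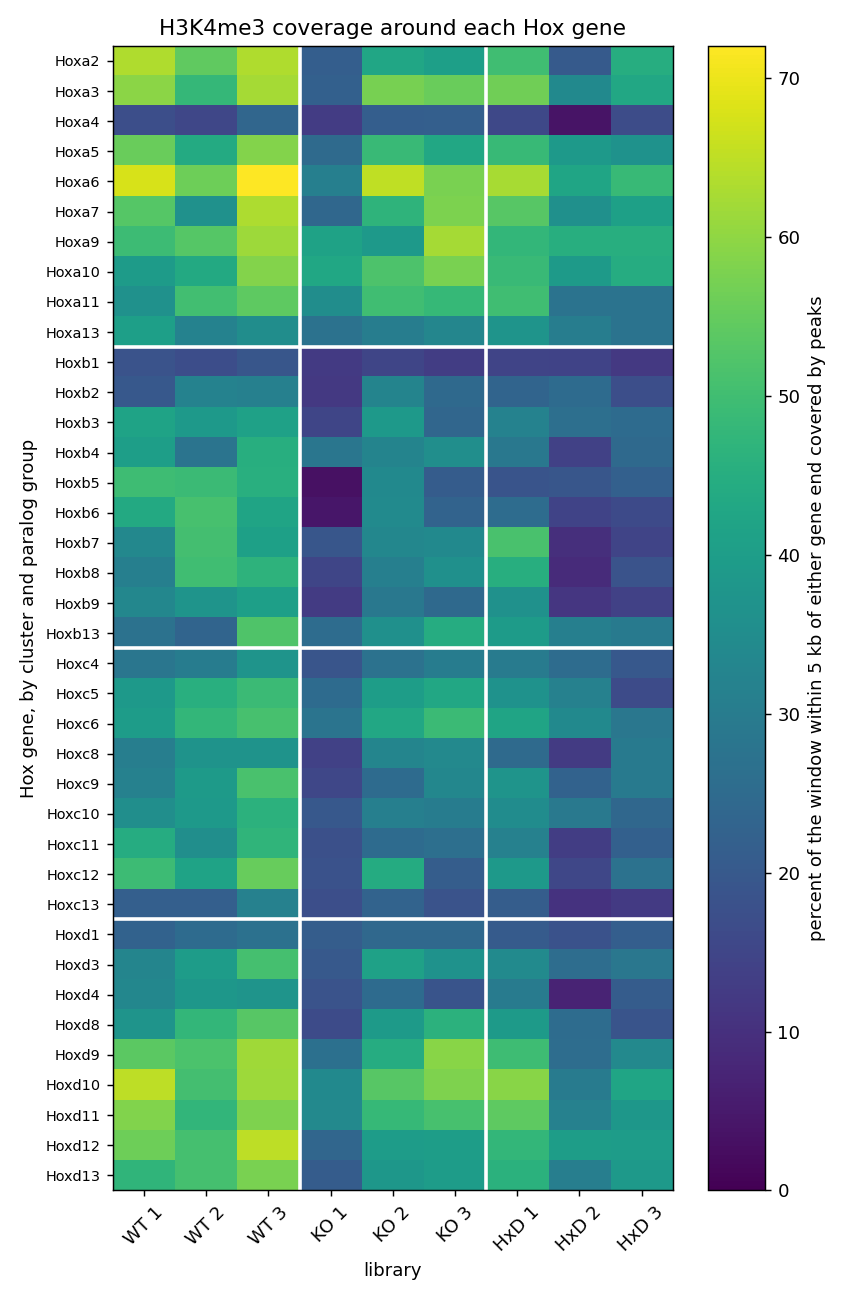
Percent of the window within 5 kb of either gene end that was under a peak, for the 38 Hox genes (vertical, by cluster and number) in the 9 libraries (horizontal); brighter is more. The columns of KO 1, HxD 2 and HxD 3 are dark over most genes, and the darkest cells among the HoxB genes are Hoxb5 and Hoxb6 in KO 1.

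Breadth was lower in the mutants over nearly the whole family as deposited. The mean difference was negative for 36 of 38 genes in KO, where 52.6% of all tested genes were lower, and for 38 of 38 in HxD, where 68.5% were. The median difference of the Hox genes was -1722 bp in KO and -1999 bp in HxD, against -41 and -246 bp over all genes. Hox genes had more bp to lose, with a median breadth of 5690, 6397 and 7408 bp in the WT libraries. The mean over all tested genes was 2264, 2210 and 2804 bp there. Across the 38, WT breadth and the KO difference had Spearman's rho = -0.44, and the 2 share the WT values. The 2 genes above WT in KO, named after their values were seen, were Hoxa10, by 679 bp, and Hoxb13, by 145 bp. With libraries centred on their genome-wide mean, 35 of the 38 were lower in KO (48.5% of all genes) and 37 in HxD (46.8%). With libraries scaled to equal mean breadth the counts were 35 (48.9%) and 36 (49.5%), and with lists shortened to the same number of peaks 30 (34% of 17144 genes) and 36 (42%). KO and HxD were compared with the same WT libraries, so their 2 sets of differences are not independent.

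By limma, with Benjamini-Hochberg adjustment over the 17982 genes, 1 Hox gene, Hoxb5, was narrower in KO, where 0.634% of all genes were (114 genes, and 5 broader). At an unadjusted p under 0.05 there were 12 Hox genes, against 10.9% of all genes. In HxD no Hox gene passed, where 0.412% of all genes did (74 genes, and 1 broader); 17 had an unadjusted p under 0.05, against 13.3% of all genes. Every KO library lay below every WT library for 10 of the 38 (11.8% of all genes), every HxD library for 17 (16.6%), and all 6 mutant libraries for 9 (8.04%). Between HxD and KO no Hox gene and no gene of the genome passed (0% of all genes); 27 Hox genes were lower in HxD, where 72.8% of all genes were, with a median of -220 bp.

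The unscaled breadths carry the spread of the libraries. With each library centred on its mean, 11 Hox genes were narrower in KO, where 2.6% of genes were (467 narrower and 324 broader), and 3 in HxD, where 0.528% were (95 and 42). The 3 were Hoxb5, Hoxb6 and Hoxc11, and they were among the 11. With libraries scaled to equal mean breadth the counts were 8 (2.56% of genes) and the same 3 (1.28%). With lists of equal length none passed in KO (0.391% of genes) or in HxD (0.00583%).

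**Figure D4:**
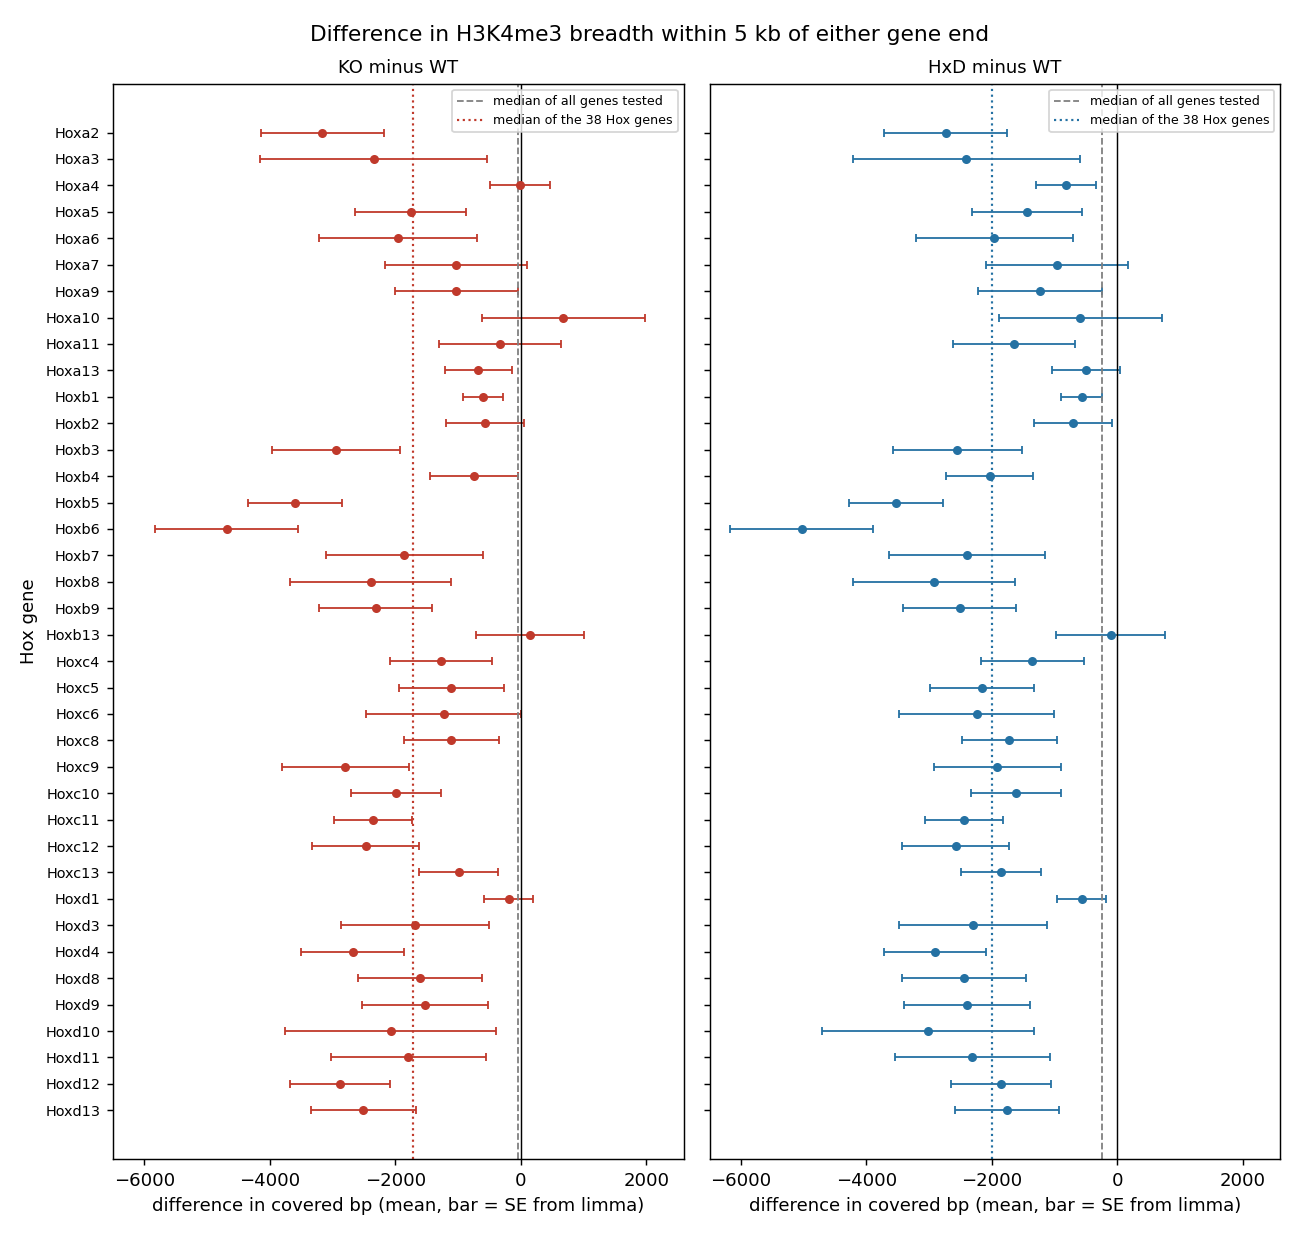
Difference in covered bp between mutant and WT for each Hox gene, with the standard error from limma (left KO, right HxD); dotted line, median of the 38; dashed line, median of all tested genes. As deposited, 36 points lie left of zero in KO and 38 in HxD, with Hoxb6 and Hoxb5 farthest to the left, and most bars overlap each other.

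Single libraries weighed heavily. KO replicate 1 was below every WT library in 35 of the 38 genes, KO replicate 2 in 16 and KO replicate 3 in 14. Among HxD libraries the counts were 17, 36 and 34 for replicates 1, 2 and 3. These counts have no share over all genes beside them, so they are not read as particular to Hox genes. KO replicate 1 and HxD replicates 2 and 3 also had the lowest mean breadth over all tested genes. The median ratio of a Hox gene to its WT mean was 0.477, 0.873 and 0.893 in the KO libraries and 0.873, 0.592 and 0.651 in the HxD libraries.

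The ratio of the mean breadth over all genes to its WT mean, another kind of summary than a median of ratios, was 0.779, 1.04 and 1.11 in KO and 1.03, 0.807 and 0.809 in HxD. In each of the 6 mutant libraries the Hox ratio was the lower of the pair. Among them, KO replicates 2 and 3 and HxD replicate 1 had a mean breadth over all genes above the WT mean. Their lists nevertheless covered 73.0, 69.5 and 69.3 Mb, less than any WT list (76.6 to 108.9 Mb). The Hox ratio was also the lower of the pair in WT replicate 1 (0.913 against 0.933) and in WT replicate 3. It was the higher in WT replicate 2 (0.953 against 0.911). Without KO replicate 1 the median difference of the Hox genes in KO was -610 bp, 32 were lower, and no gene of the genome passed.

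Among the genes of groups 1 to 4, which pattern the hindbrain and neck, the median share of the window under peaks had a WT value of 36.3%, beside 25.5% in KO and 22.4% in HxD (11 genes). Hoxa2, which sets the identity of the second pharyngeal arch, had 7866, 6761 and 7863 bp in WT, 2667, 5280 and 5052 bp in KO, and 6203, 2517 and 5565 bp in HxD. Every mutant library was below every WT library. The difference was -3164 ± 980.3 bp in KO (SE, adjusted p = 0.132 by limma) and -2735 bp in HxD (adjusted p = 0.207), so neither passed. The gene lies at chr6:52162417-52164831.

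Hoxd4, a neck vertebra and hindbrain gene at chr2:74721978-74729160, had 5741, 6573 and 6415 bp in WT, 3145, 4332 and 3219 bp in KO, and 5157, 1256 and 3597 bp in HxD. Again no mutant library reached the lowest WT library, with HxD replicate 2 far under the rest. The differences were -2678 ± 817 bp and -2906 ± 817 bp (SE, adjusted p = 0.129 and 0.113 by limma). Hoxa3, needed for the thymus and parathyroid, is a long gene at chr6:52169059-52213067 and the broadest of HoxA. It had 11926, 9585 and 12472 bp in WT, 4422, 11432 and 11102 bp in KO, and 11290, 6823 and 8647 bp in HxD, and its groups overlapped (adjusted p = 0.563 and 0.602 by limma).

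The starts of these genes differ greatly in CpG content, which is shown here because TET1 and the MLL enzymes bind CpG-rich DNA. RefSeq promoters (GRCm38.p6, the same assembly as mm10) were available for 22 of the 38 genes, each from 250 bases before to 50 after the first listed start. Those not matched were Hoxa4, Hoxb2, Hoxb3, Hoxb5, Hoxb6, Hoxb7, Hoxb9, Hoxb13, Hoxc5, Hoxc6, Hoxc8, Hoxc9, Hoxc10, Hoxc11, Hoxc12 and Hoxc13. Below are the promoters of the 3 genes matched among those described one by one that had all mutant libraries below WT, and that of Hoxa13, the one richest in CpG. Each is written 5′ to 3′ on the gene's strand with every CG in capitals: Hoxa2, minus strand, chr6:52164782-52165081; Hoxd4, plus strand, chr2:74721728-74722027; Hoxd12, plus strand, chr2:74674763-74675062; Hoxa13, minus strand, chr6:52260831-52261130.
Hoxa2: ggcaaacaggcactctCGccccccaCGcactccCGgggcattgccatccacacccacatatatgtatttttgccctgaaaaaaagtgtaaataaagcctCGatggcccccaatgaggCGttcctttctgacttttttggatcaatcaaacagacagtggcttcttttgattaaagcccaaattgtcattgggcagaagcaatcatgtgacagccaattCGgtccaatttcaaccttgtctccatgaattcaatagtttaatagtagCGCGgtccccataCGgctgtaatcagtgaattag
Hoxd4: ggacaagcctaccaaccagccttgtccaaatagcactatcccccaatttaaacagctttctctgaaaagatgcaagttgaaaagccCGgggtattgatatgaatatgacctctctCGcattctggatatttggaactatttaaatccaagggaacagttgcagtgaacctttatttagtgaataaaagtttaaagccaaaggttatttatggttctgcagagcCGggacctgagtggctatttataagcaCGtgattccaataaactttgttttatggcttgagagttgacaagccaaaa
Hoxd12: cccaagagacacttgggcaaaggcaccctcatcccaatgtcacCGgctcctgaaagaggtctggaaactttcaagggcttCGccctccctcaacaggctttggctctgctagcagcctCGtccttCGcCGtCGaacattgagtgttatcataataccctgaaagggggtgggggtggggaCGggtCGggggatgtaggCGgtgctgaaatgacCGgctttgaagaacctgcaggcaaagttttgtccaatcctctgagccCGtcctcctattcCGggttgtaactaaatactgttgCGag
Hoxa13: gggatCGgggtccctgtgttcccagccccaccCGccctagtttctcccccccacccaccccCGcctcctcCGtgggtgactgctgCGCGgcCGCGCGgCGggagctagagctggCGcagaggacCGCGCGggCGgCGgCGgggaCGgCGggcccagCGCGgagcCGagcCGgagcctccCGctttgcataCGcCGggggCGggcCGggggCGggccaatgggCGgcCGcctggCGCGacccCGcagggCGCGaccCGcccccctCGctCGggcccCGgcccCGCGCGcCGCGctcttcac
The Hoxd4 promoter holds 4 CG, Hoxa2 9, Hoxd12 13 and Hoxa13 45, and 1.88% of the 27025 promoters in the table hold 45 or more. The 22 Hox promoters had a median of 13.5 CG (4 to 45), against 7 over the table.

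Starts with the same CG number differed in coverage. The 2000 bp around the Hoxd4 start held 77, 259 and 0 bp of peaks in WT, 321, 0 and 0 bp in KO, and 0, 0 and 19 bp in HxD. That zone, around the first listed start, was bare or nearly bare in every library. From 1 to 5 kb downstream of it the mean was 2688 bp in WT, against 848 bp in KO and 932 bp in HxD. The whole Hoxd4 window, which also takes in the far end of the gene, had means of 6243, 3565 and 3337 bp. The Hoxd11 promoter also holds 4 CG, and its start was under a peak in all 9 libraries, with a WT mean of 1345 bp covered in the same 2000 bp. The 2000 bp around the Hoxa13 start were covered over 1377, 860 and 2000 bp in WT, 1869, 1979 and 1885 bp in KO, and 1759, 2000 and 1081 bp in HxD. Coverage of that zone was high in all groups, with WT replicate 2 the lowest. The Hoxa13 start itself lay outside any peak in WT replicate 2 and in HxD replicate 3.

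Across the 22 genes the CG number and the difference in breadth had Spearman's rho = 0.07 in KO and 0.2 in HxD (Pearson's r = 0.06 and 0.27). This is a description across genes that share libraries and windows, most of them in HoxA and HoxD.

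Among the trunk genes of groups 5 to 8 the median WT share was 46.2%, beside 34.1% in KO and 27.8% in HxD (11 genes). Hoxb5, a trunk and vagal neural crest gene at chr11:96303512-96306121, had 6270, 6191 and 5717 bp in WT, 425, 4307 and 2633 bp in KO, and 2359, 2438 and 2792 bp in HxD. The WT libraries lay close together, every mutant library was well under them, and the KO libraries were widely spread. The fall in KO was -3604 ± 747 bp (SE, adjusted p = 0.0462 by limma), the only Hox change past the threshold as deposited. In HxD the difference was -3530 ± 747 bp (adjusted p = 0.0539). Without KO replicate 1 the KO difference was -2589 bp with an adjusted p of 0.1, and over all settings that p ran from 0.00334 to 0.154, under 0.05 in 5 of 19.

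Hoxb6, its neighbour at chr11:96292814-96301569 and a rib cage gene, had 8196, 9581 and 7892 bp in WT, 820, 6482 and 4297 bp in KO, and 4802, 2708 and 3055 bp in HxD. All mutant libraries were below all WT libraries. Its differences of -4690 ± 1133 bp in KO and -5035 ± 1133 bp in HxD were the largest negative ones among all 17982 genes tested in each contrast. That ranking is in bp, and a gene this broad in WT had more to lose than a gene of average breadth. The spread kept the adjusted p at 0.0749 and 0.0629 by limma. Without KO replicate 1 the KO difference was -3167 bp (adjusted p = 0.141). Its window overlaps that of Hoxb5. Stretches of 577 bp in Hoxb6 and 445 bp between Hoxb6 and Hoxb5 were marked in every WT and in no HxD library.

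Hoxc6, at chr15:102998226-103011882 and known for thoracic identity, was the broadest gene of HoxC. It had 7955, 9550 and 10232 bp in WT, 5556, 8655 and 9836 bp in KO, and 8434, 6841 and 5732 bp in HxD. Its groups overlapped in both mutants (adjusted p = 0.674 and 0.441 by limma). With lists of equal length its KO difference turned to 79 bp above WT.

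Among the posterior genes of groups 9 to 13 the median WT share was 47.2%, beside 33.8% in KO and 34.2% in HxD (16 genes). Hoxc11, a hindlimb and sacral gene at chr15:102954526-102956701, had 5414, 4318 and 5745 bp in WT, 2133, 3051 and 3216 bp in KO, and 3845, 1607 and 2705 bp in HxD. Both mutants lay wholly below WT. The differences were -2359 ± 622 bp and -2440 ± 622 bp (SE, adjusted p = 0.0914 and 0.0852 by limma).

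Hoxd12, a limb and genital tubercle gene at chr2:74675013-74677705, had 7130, 6436 and 8247 bp in WT, 3011, 5037 and 5103 bp in KO, and 6062, 5095 and 5068 bp in HxD. No mutant library overlapped WT, and HxD replicate 1 came nearest to it. The differences were -2887 ± 797 bp and -1863 bp (SE, adjusted p = 0.102 and 0.296 by limma). It lies beside the 614 bp stretch absent from KO. Hoxd10, at chr2:74684273-74695106 and the broadest of HoxD, had 12959, 10093 and 12319 bp in WT, 6846, 10676 and 11624 bp in KO, and 11853, 5979 and 8493 bp in HxD, with overlapping groups (adjusted p = 0.59 and 0.451 by limma).

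The other genes with no overlap between WT and both mutants were Hoxb1, Hoxc10 and Hoxd13, the last a gene of digits and external genitalia. By cluster, the median difference in KO was -1028 bp in HoxA, -2083 bp in HoxB, -1271 bp in HoxC and -1790 bp in HoxD. In HxD it was -1339, -2454, -1919 and -2314 bp. Both contrasts had their largest median in HoxB and their smallest in HoxA, without a test between clusters.

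Coverage was read by position around the 22 listed starts. Most of these lie in HoxA and HoxD. Of HoxB they include only Hoxb1, Hoxb4 and Hoxb8, and of HoxC only Hoxc4, so Hoxb5, Hoxb6 and Hoxc11 are absent. Within 1 kb of the start, Hox genes of WT were covered over 70.8 ± 8.23% (mean ± SD, n = 3 libraries). Those of KO were covered over 63.8 ± 13.2% and those of HxD over 60.2 ± 8.44%. All genes with a listed start were covered over 57.4%, 61.2% and 58.4% in the order WT, KO and HxD. For Hox genes the KO libraries had 48.6%, 72.6% and 70.2%, against 69.5%, 63.3% and 79.6% in WT. Only KO replicate 1 thus lay below every WT library within 1 kb. Just downstream of the start the KO mean lay above the WT mean in several bins of 100 bp. From 1 to 5 kb upstream, Hox genes had 32.4%, 34.5% and 41.6% in WT, 16.4%, 27.0% and 33.7% in KO, and 32.2%, 17.9% and 24.1% in HxD. From 1 to 5 kb downstream they had 44.3%, 39.0% and 49.7% in WT, 20.1%, 35.7% and 41.1% in KO, and 38.3%, 21.0% and 27.9% in HxD. In both outer zones every HxD library was below every WT library, while KO replicate 3 overlapped WT.

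Over all 14337 tested genes with a listed start the outer zones were nearly bare, at means of 7.7% upstream and 9.5% downstream in WT. These means were lower in the mutants as well, at 7.1% and 9.1% in KO and 5.9% and 7.5% in HxD. The difference for Hox genes was -10.5 percentage points upstream and -12.0 downstream in KO, and -11.4 and -15.3 in HxD. Within 1 kb it was -7.0 and -10.6. Neighbouring Hox genes stand within a few kb of each other, so an outer zone of one gene can hold the start of the next.

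**Figure D5:**
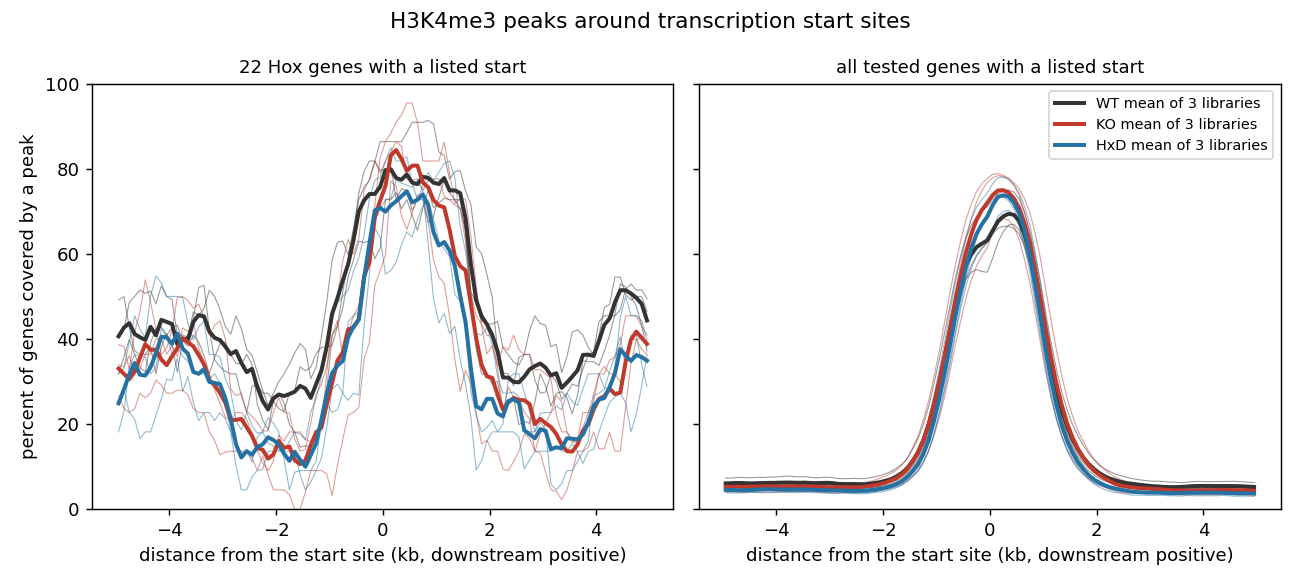
Percent of genes under a peak in bins along the distance from the start site in kb (left, 22 Hox genes; right, all tested genes with a listed start); thin lines are libraries and thick lines the means of 3. On both flanks of the Hox genes the WT mean lies above both mutant means over most bins. The means come close in a few bins between 3 and 4 kb upstream. The 22 Hox genes lie mostly in HoxA and HoxD. Just downstream of the start the KO mean lies above the WT mean in several bins, and each mean is highest near the start.

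Genes that work with or on the Hox genes were read from lists made for this purpose. The Hox cofactors, PBX, MEIS and PKNOX proteins that bind DNA together with HOX proteins, comprised 9 genes, of which 4 were lower and 5 higher in KO (median 125 bp) and 5 lower and 4 higher in HxD (median -555 bp). None passed by limma. The smallest p in KO was that of Pbx2, with 4837, 1970 and 5805 bp in WT and 6271, 5767 and 7108 bp in KO (adjusted p = 0.32). In HxD it was Meis3, with 1281 ± 282 bp against 1900 ± 716 bp in WT (SD, n = 3; adjusted p = 0.532 by limma).

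Of 22 upstream regulators of Hox genes (CDX and retinoic acid receptors, GDF11, the MLL complexes and the Polycomb proteins), 21 were tested and Rarb had no peak in any library. In KO 8 were lower and 13 higher (median 476 bp), in HxD 12 and 9 (median -166 bp), and none passed by limma. Phc1, a Polycomb subunit, had the smallest p in KO, at 2684 ± 468 bp against 1592 ± 663 bp in WT (SD, n = 3; adjusted p = 0.256). In HxD it was Men1, the menin subunit of MLL complexes, at 3028 ± 128 bp against 4570 ± 1131 bp (adjusted p = 0.243). Evx1 and Evx2, the homeobox genes at the ends of HoxA and HoxD, were lower in both mutants, by medians of -1354 and -1073 bp, and did not pass.

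Marker genes of the sorted cells and of other testis cells were read beside the Hox genes. The summed breadth of 12 prospermatogonial markers ranged from 20.2 to 26.0 kb in WT libraries, from 21.9 to 35.4 kb in KO and from 19.1 to 30.5 kb in HxD. In the limma differences 10 of 11 tested were higher in KO and 6 of 11 in HxD. Pou5f1, the gene of the reporter, Ddx4, Dazl and Nanos2 had peaks in all libraries, while Piwil2 had one in 2 of 9. Nanos3 had none in WT replicate 1, and Mael none in WT replicate 2 and HxD replicates 2 and 3. Piwil4 had none in KO replicates 1 and 2. It was the only tested marker lower in KO, at -1464 bp (adjusted p = 0.0846 by limma). Most defining germ cell markers were thus marked in these cells.

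Markers of somatic testis cells were marked as well. The sums for 10 Sertoli genes ranged from 39.6 to 46.6 kb in WT libraries, from 26.9 to 40.4 kb in KO and from 26.3 to 39.7 kb in HxD. For 12 Leydig or interstitial genes they were 41.1 to 59.3, 24.4 to 46.1 and 31.4 to 44.2 kb, and for 10 endothelial or blood genes 18.4 to 23.2, 8.7 to 17.8 and 11.0 to 17.1 kb. The lowest libraries were those with the least Hox coverage, KO replicate 1 and HxD replicate 2.

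In KO 7 of 9 Sertoli, 7 of 9 Leydig or interstitial and 6 of 7 endothelial or blood genes that were tested were lower, and in HxD 9 of 9, 8 of 9 and 7 of 7, none past the threshold. Sox9 and Wt1 carried peaks in every library. Cyp17a1, Ptprc and Csf1r had no peak in any. Dmrt1 is also a germ cell gene, and Gata1 stands on 2 of the lists. These sums moved with the Hox breadths, and their part in the Hox differences was not tested. Fewer cells of a type and less mark per cell cannot be told apart in such samples.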

How the data were processed

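The deposited files are 9 lists of H3K4me3 peaks in MACS2's narrow peak format, 1 per library, so the authors called peaks per sample. The submitters' processing notes name mm10 as the build, MACS2 2.1.0, Bowtie2 2.5.0, Trim Galore, deepTools 3.5.1, SAMtools 1.16.1 and bedtools 2.27.1. The sources used here give neither their settings nor whether IgG was the control of the calls. Each deposited peak has the authors' score, a fold enrichment (a linear ratio) and −log10 p and q values. The smallest −log10 q of the deposited lists was 2.0 to 2.02. Read counts were not analysed here, so depth is known only through the lists.

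Within a library, overlapping peaks were merged, on X, Y and the 19 autosomes. Gene positions came from RefSeq (GRCm38.p6). Breadth counted the bp under peaks at most 5 kb from either gene end. Genotypes were compared in limma 3.58.1 and R 4.3.3 (all 9 libraries, eBayes with trend, Benjamini-Hochberg, threshold 0.05). Cluster lengths were compared with two-sided exact permutation tests, enumerated in Python 3.11.15. On data simulated for KO against WT with 17982 genes, losses of 3000 bp were recovered in 33.5% of 200 genes and losses of 1500 bp in 0%. The losses were placed on broad genes only, and the noise was drawn independently for each gene and library. Shifts of whole libraries, as in KO replicate 1, were not simulated, so these rates need not hold for the real libraries. Genes described one by one had, in their cluster, the smallest limma p in a mutant or the greatest WT breadth, or passed the threshold; from the cofactor and regulator lists the smallest p was named. Alternatives covered the window, filter, peak threshold, scaling, list length, block and libraries left out. The Hox genes and all lists were chosen with earlier results of these data known.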

Additional observations from a re-analysis of the deposited data

How the results depend on the processing

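The lower Hox coverage in both mutants kept its direction under most settings, and the number of genes past the threshold did not. In KO against WT, with 114 genes narrower, 5 broader and 1 Hox gene narrower as deposited, limma gave 1 narrower with a 2 kb window, 50 with the better covered end only, 467 with centred libraries, 460 with equal mean breadth, 67 with lists of equal length, 186 without the filter, 10 with stricter peaks and 0 without KO replicate 1 and HxD replicate 2. Broader genes were 0 with the 2 kb window, with stricter peaks and without those 2 libraries, 324 with centred libraries, 202 with equal mean breadth and 305 with lists of equal length. Hox genes narrower were 11 and 8 with the 2 scalings and 0 with the 2 kb window, the better covered end, lists of equal length, stricter peaks and without the 2 libraries. Hoxc6 turned to 79 bp with lists of equal length.

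In HxD against WT, narrower genes were 0 with the 2 kb window and without the 2 libraries, 231 with equal mean breadth, 1 with lists of equal length, 179 without the filter and 7 with stricter peaks. Broader genes were 42 with either scaling, 3 with lists of equal length, and 0 with the 2 kb window, stricter peaks and without the 2 libraries. Hox genes narrower were 3 with either scaling. In HxD against KO the median Hox difference turned to 4 bp with centred libraries and 174 bp with equal mean breadth.

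Scaled by total covered bp, KO minus WT was 6.5 kb in HoxA, 0.6 in HoxC and 0.1 in HoxD, HxD minus WT 10.1, 2.4 and 2.3 kb, and HxD minus KO 3.6, 1.4, 1.8 and 2.2 kb in HoxA to HoxD. The exact permutation F test for HoxA then gave p = 0.00714, with the mutants longer. With equal mean breadth that exact test gave p = 0.0357 for HoxB, HoxC and HoxD, and HxD minus KO was 1.6 kb in HoxA, 0.4 in HoxC and 0.8 in HoxD. The F test p-values on scaled lengths were not adjusted over the 4 clusters. The cause was not tested.

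Leaving out 1 library at a time, narrower genes ranged from 0 to 99 in KO and 0 to 115 in HxD, broader ones from 0 to 2 and 0 to 3, and Hox genes narrower from 0 to 2 in each. The median Hox difference ranged from -2186 to -610 bp in KO, -2688 to -1467 bp in HxD and -1003 to 185 bp between HxD and KO. KO minus WT ranged from -8.7 to -0.4 kb in HoxA, -20.2 to -10.8 in HoxB, -12.7 to -6.6 in HoxC and -14.3 to -7.2 in HoxD. HxD minus WT ranged from -11.2 to -5.2, -25.5 to -16.4, -16.1 to -9.8 and -18.7 to -10.2 kb, and HxD minus KO from -7.6 to 0.8, -9.2 to 0.2, -6.2 to 0.2 and -7.0 to 1.6 kb. The F test ranged from p = 0.15 to 0.675 in HoxA, 0.0464 to 0.214 in HoxB, 0.05 to 0.261 in HoxC and 0.0571 to 0.304 in HoxD (exact permutation).

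The replicate numbers did not pair the libraries: over 9 same-numbered pairs the correlation of deviations ran from -0.35 to 0.13, above 0.1 in 1. With the number as a block limma called 30 genes narrower and 1 broader in KO, 1 and 0 in HxD, and 0 Hox genes. Within numbers, the exact sign-flip permutation test cannot go below p = 0.25 and reached it for HoxB, HoxC and HoxD in both mutants. No blocked F test was run. Peak lists without depths leave unknown how much of a difference in breadth is sensitivity of the calls.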

Other observations

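Hox peaks were compared with all peaks of their own list in length and in strength. Their median length was 1087 to 1341 bp in WT, 778 to 1420 bp in KO and 918 to 1378 bp in HxD, against medians of 433 to 793 bp over all peaks of the 9 lists. Ranked within its own list by the authors' fold enrichment, the median Hox peak stood between the percentile 48.9, in HxD replicate 3, and 72.8, in KO replicate 1. The strongest Hox peak of a list was within Hoxc4 in WT replicate 1, within Hoxd3 in WT replicate 2 and within Hoxb3 in WT replicate 3. These are ranks within lists and are not compared between genotypes.

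The letters TAAT, the core that homeodomains bind, or their reverse complement ATTA, were found in 17 of the 22 Hox promoters (77.3%) and in 58.3% of the 27025 promoters of the same length. The search covered both strands, and a match of letters is not a binding site. No test was made of the difference.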
